A study of Mus musculus with 24 samples.

Results

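The flavin-containing monooxygenases described here are Fmo1, Fmo2, Fmo4 and Fmo5. They were chosen by their gene symbols, which are listed in both deposited count tables, and are 4 genes among the 46093 symbols of each table. The livers came from C57BL/6 mice, and their RNA-seq libraries number 24, with 3 per group and 8 groups that combine genotype, diet and sex. The genotypes were Cyp2b9/10/13-null (Cyp2b-null), in which 3 cytochrome P450 genes of the Cyp2b family are deleted, and wild type (WT). The diets were a high-fat diet with 60% fat (HFD) and normal chow (ND), each fed for 10 weeks. The groups of each sex were therefore Cyp2b-null HFD, WT HFD, Cyp2b-null ND and WT ND. The labels do not give the age of the mice, and they do not say whether replicate libraries are separate animals. The study addresses the part of Cyp2b in obesity caused by diet. The values of the 4 genes show how another family of microsomal oxygenases was expressed in the same livers.

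Flavin-containing monooxygenases insert an oxygen atom into soft nucleophiles such as amines and sulfides. Each enzyme binds FAD and takes its electrons directly from NADPH, whereas microsomal P450 enzymes receive them through the reductase encoded by Por. FMO1 has a broad substrate range and, in humans, makes taurine from hypotaurine. FMO2 is best known as the form of the lung, FMO4 is the least studied of the family, and FMO5 favours Baeyer-Villiger oxidation of carbonyl compounds over the usual reactions.

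Fmo1, Fmo2 and Fmo4 are neighbours on chromosome 1 and read from the minus strand in GRCm38, by the GENCODE M21 annotation. Fmo4 lies at 162793188 to 162813972, Fmo1 at 162829561 to 162866610 and Fmo2 at 162874317 to 162898726, a span of 105.5 kb. Fmo5 stands apart on the plus strand of chromosome 3, at 97628804 to 97655282. No other annotated gene overlaps any of them, so an overlapping gene cannot have shared their reads in this annotation. The first 90 coding bases of the principal transcripts of Fmo2, Fmo4 and Fmo5 are shown. They hold the stretch that encodes the glycines of the FAD-binding fold. Identity over the whole coding sequence is given below them. Capitals mark the glycine codons of the pattern glycine, any, glycine, any, any, glycine.
Fmo2: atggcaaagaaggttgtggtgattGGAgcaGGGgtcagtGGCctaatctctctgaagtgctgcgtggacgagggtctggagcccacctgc
Fmo4: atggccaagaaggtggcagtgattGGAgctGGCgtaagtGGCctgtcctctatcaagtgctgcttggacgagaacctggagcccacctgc
Fmo5: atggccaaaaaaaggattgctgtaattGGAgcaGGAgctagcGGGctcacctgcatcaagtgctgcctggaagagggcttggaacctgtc

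The pattern starts at codon 9 in Fmo2 and Fmo4 and at codon 10 in Fmo5. It occurs again at codon 191 in Fmo4 and at codon 192 in Fmo5, and these letters were found once in the coding sequence of Fmo2. Over the whole aligned coding sequence the pairs of these 3 genes were between 60.6% (Fmo4 and Fmo5) and 62.6% (Fmo2 and Fmo4) identical. The longest run of bases shared exactly by a pair was between 12 (Fmo4 and Fmo5) and 22 (Fmo2 and Fmo4). Identical stretches of that length are short, which bears on how reads can be split between them, but no source used here gives the read length or the counting settings.

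The 12 female libraries held 2.01 M to 2.66 M counts each and the 12 male libraries 8.28 M to 20.2 M. Females and males were processed with different extraction and library kits, which cannot be told apart from sex. In the females the targeted genes fitted the titles: Cyp2b13 had 0 counts in all 6 Cyp2b-null libraries and 565 to 1138 in the 6 WT ones. In the males they did not settle the label. Cyp2b13 had 7 to 89 counts in the libraries labelled Cyp2b-null and 23 to 85 in the WT ones. Cyp2b10 had 4 to 26 and 7 to 97, in that order. On ND Cyp2b9 had 24, 29 and 59 counts in males labelled Cyp2b-null and 1, 2 and 4 in WT males. On HFD it had 36, 85 and 19 against 354, 48 and 797. Every male genotype difference below is therefore between males labelled Cyp2b-null and WT males. The genotype field of 6 female libraries names the other genotype than their titles do, and the titles were followed. In the male labelled Cyp2b-null ND group, library 1 diverged from all others: mitochondrial genes took 32.0% of its counts, and no more than 7.76% in any other male library. The female libraries fell on either side of a first principal component holding 29.2% of the variance. There were 5 on one side and 7 on the other, which followed neither genotype nor diet. Mitochondrial genes took 5.41% to 13.96% of the counts in the 5 libraries and 3.85% to 5.56% in the 7. The sides were read from these same counts. All 8 hepatocyte markers were detected in every library. For some of the results, fits without the divergent library or with a term for these female sides are also given.

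All 4 genes were detected in every library and all 4 passed the filter on low counts in both sexes. Counts were thinnest for Fmo4, with 9 to 54 per female library and 101 to 359 per male library. Per kb of annotated exon, Fmo1 and Fmo5 lay far above Fmo2 and Fmo4 in both sexes. In Cyp2b-null HFD females Fmo5 had 59.0 ± 1.1 and Fmo1 49.9 ± 8.2 counts per kb after scaling to library size (CPM per kb), against 11.3 ± 1.4 for Fmo2 and 4.35 ± 0.78 for Fmo4 (SD, n = 3). In Cyp2b-null HFD males Fmo5 had 219 ± 42 CPM per kb and Fmo1 57.7 ± 7.3, against 6.83 ± 1.22 for Fmo2 and 3.19 ± 0.73 for Fmo4. Fmo5 thus made up 76.1% ± 3.8 of the summed level of the 4 genes per kb of exon in Cyp2b-null HFD males and 47.5% ± 2.9 in Cyp2b-null HFD females. The order of Fmo1 and Fmo5 in females depended on the group and on the length used. Per kb of exon, WT HFD females had 47.1 ± 2.3 for Fmo1 and 45.3 ± 8.3 for Fmo5. Cyp2b-null ND females had 44.8 ± 4.6 and 44.0 ± 10.2, and WT ND females 44.8 ± 4.2 and 61.7 ± 5.8. Per kb of the principal transcript, which is much shorter than the summed exons for Fmo1, Fmo1 had 132 ± 22 and Fmo5 64.4 ± 1.2 CPM per kb in Cyp2b-null HFD females. On that length Fmo5 made up 58.7% ± 5.1 of the 4 genes in Cyp2b-null HFD males and 29.7% ± 2.6 in Cyp2b-null HFD females. Of the family's genes that are no members here, Fmo6 had at most 2 counts and Fmo9 had 0 in every library.

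**Figure D1:**
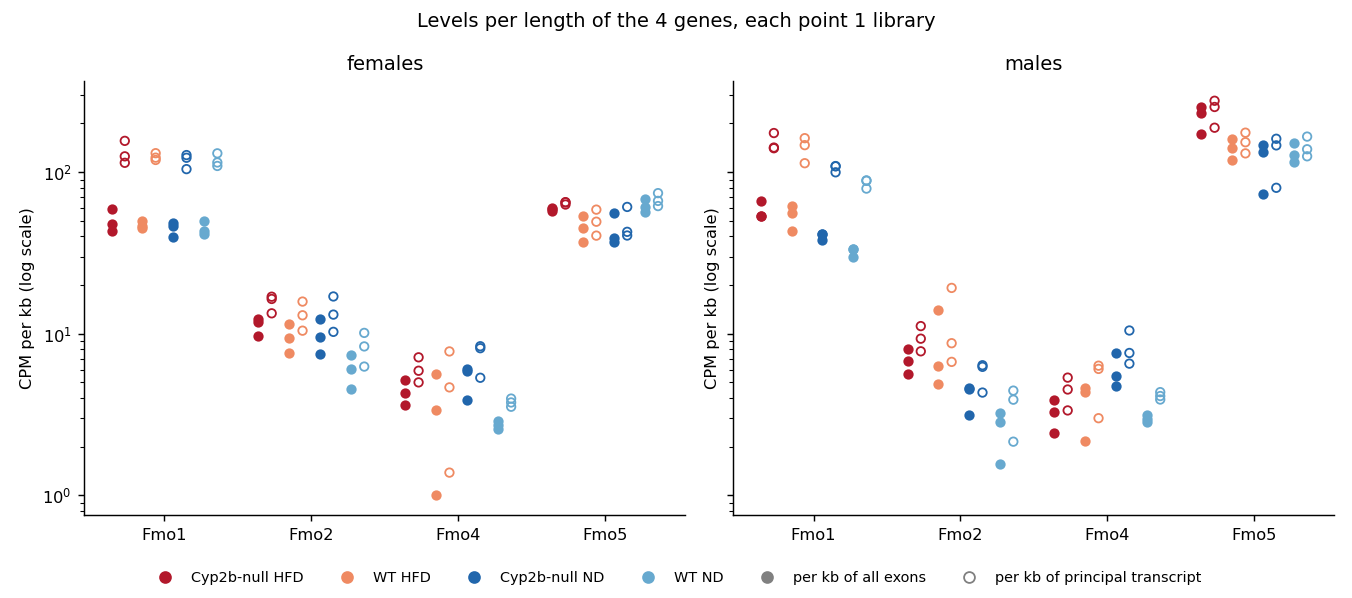
Level per length of the 4 genes in each library, in CPM per kb on a log scale, for females (left) and males (right). Filled points use the summed annotated exons and open points the principal transcript, colours give the group, and Fmo1 and Fmo5 lie above Fmo2 and Fmo4 in every group on both lengths.

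None of the 4 genes passed the threshold in any comparison within a sex. Each sex was tested for the genotype effect on each diet, the diet effect in each genotype and the genotype by diet interaction, so that there were 40 tests of members in 10 comparisons. The smallest adjusted p among them was 0.2128, for Fmo4 between males labelled Cyp2b-null and WT males on ND, while 13 of the 40 had an unadjusted p under 0.05. The comparisons within a sex share libraries and are not independent of each other. Few genes of any kind were called. For Cyp2b-null against WT on ND 0.127% of the genes tested were called in females and 0.0134% in males, and on HFD 0.0169% in females and 0% in males. For HFD against ND in WT mice the shares were 0.0169% in females (2 genes, and 0 with the replicate number as a block) and 0% in males, and in Cyp2b-null mice 0% in both sexes. The interactions had 0% in both sexes. In these comparisons without any edgeR call, DESeq2 called 3 genes for diet in Cyp2b-null females and 110 in males labelled Cyp2b-null, 17 for genotype on HFD in males, 70 for diet in WT males, 10 for the female interaction and 19 for the male one. Unadjusted p under 0.05 was reached by 4.80%, 11.1%, 2.12%, 6.49%, 2.89% and 4.65% of the genes in those 6 comparisons, in the same order, and by 6.33% (genotype on ND), 2.44% (genotype on HFD) and 3.48% (diet in WT) in females and 18.6% (genotype on ND) in males. DESeq2 called 2 members, Fmo1 and Fmo2, for diet in WT males, where 0.479% of the genes it tested were called, and none elsewhere.

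**Figure D2:**
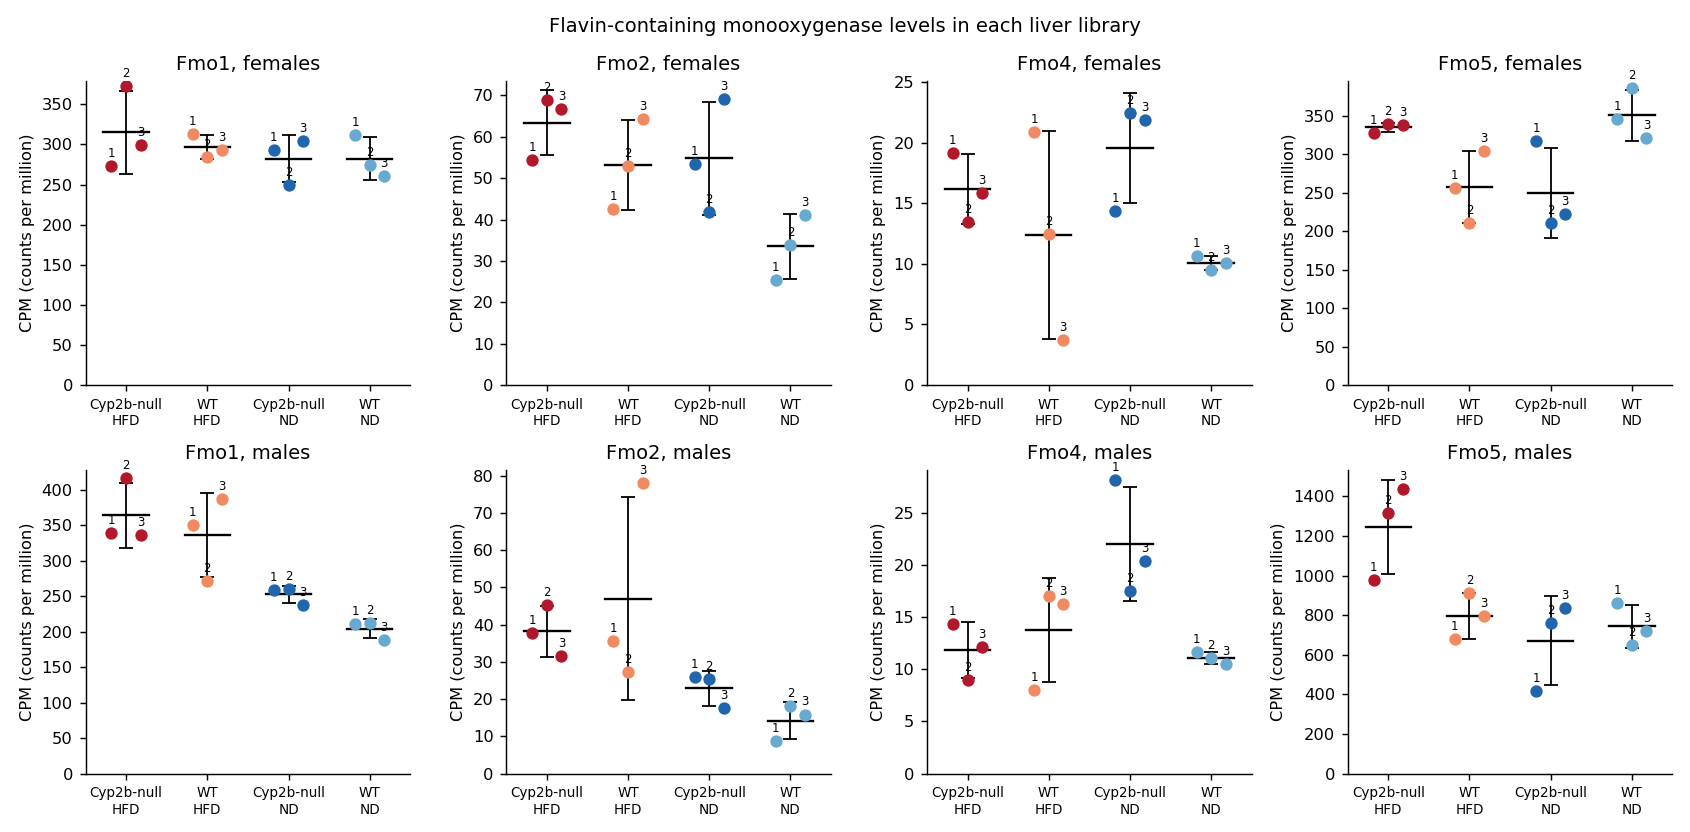
CPM of each gene in each library, females above and males below, with the mean as a line and the SD as a bar (n = 3) and the replicate number above each point. In males, all 6 HFD libraries lie above all 6 ND libraries for Fmo1 and Fmo2, and in females Fmo5 is highest in the WT ND and Cyp2b-null HFD groups.

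**Figure D3:**
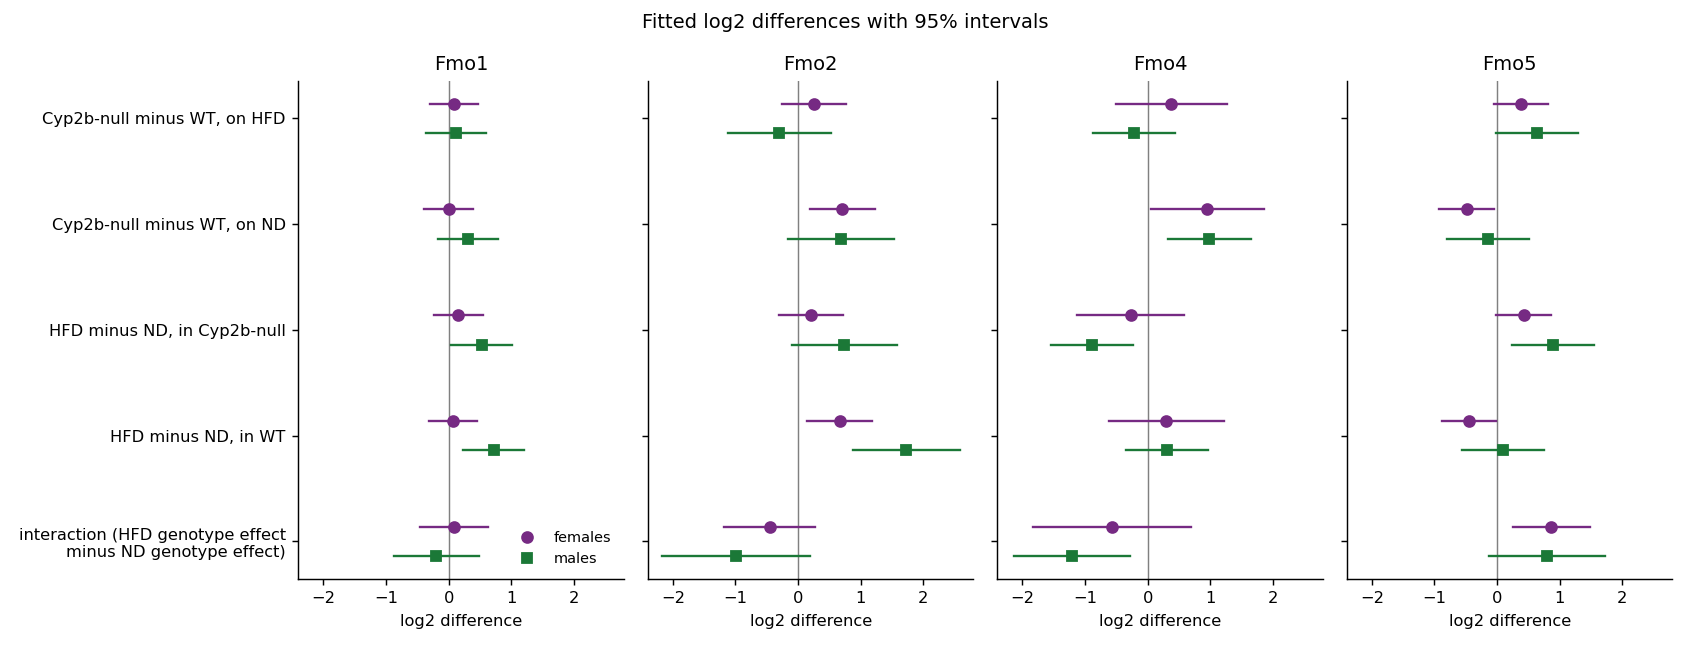
Fitted log2 differences with 95% intervals for the 4 genes in 5 comparisons, females as circles and males as squares, to the right of 0 where the group named first is higher. The value furthest from 0 is that of Fmo2 for diet in WT males, at 1.73.

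Fmo1, the broad-substrate form, had similar levels in the 4 female groups and, in males, was higher in every HFD library than in every ND library, without passing edgeR's threshold. In females it measured 273, 373 and 299 CPM in Cyp2b-null HFD livers, 313, 284 and 293 in WT HFD, 293, 249 and 304 in Cyp2b-null ND and 312, 274 and 261 in WT ND. All 4 female groups overlapped, and their means ran from 282 to 315 CPM. The log2 difference between Cyp2b-null and WT females on ND was 0.00 with a 95% interval of -0.39 to 0.39, and that between HFD and ND was 0.16 ± 0.18 (SE) in Cyp2b-null and 0.07 ± 0.18 in WT females.

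In males Fmo1 measured 339, 417 and 336 CPM in the labelled Cyp2b-null HFD livers, 351, 271 and 387 in WT HFD, 259, 260.3 and 238 in the labelled Cyp2b-null ND and 211, 212 and 189 in WT ND. Each of the 6 HFD libraries was above each of the 6 ND libraries. Of the 14873 genes tested in males 0.699% had all 6 HFD libraries above all 6 ND libraries, and among the members Fmo1 and Fmo2 did. In order of their means the groups were labelled Cyp2b-null HFD (364 ± 46 CPM), WT HFD (336 ± 59), labelled Cyp2b-null ND (253 ± 13) and WT ND (204 ± 13), with overlap only between the 2 HFD groups. Of all genes tested, 12.9% were higher on HFD without overlap in WT males and 6.37% in males labelled Cyp2b-null. On ND 10.3% were higher without overlap in labelled Cyp2b-null than in WT males. The diet effect was 1.65-fold in WT males (log2 0.72 ± 0.22, unadjusted p = 0.00693, adjusted p = 0.5406, edgeR) and 1.44-fold in males labelled Cyp2b-null (0.53 ± 0.22, adjusted p = 0.4419). DESeq2 gave the WT value an adjusted p of 0.03443, so the call depended on the tool. With the replicate number as a block, edgeR's adjusted p for it was 0.6906. Leaving out the divergent library, which is in neither WT group but enters the estimate of the spread, gave edgeR's WT value an adjusted p of 0.06838. The interaction was -0.19 ± 0.31, and the genotype effect 0.11 ± 0.22 on HFD and 0.31 ± 0.22 on ND. With the divergent library left out, the interaction was -0.18 and the genotype effect on ND 0.29. The diet effect in males labelled Cyp2b-null was then 0.55.

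Fmo2, the form known from the lung, had the difference furthest from 0 of any member, and it was found in WT males between the diets. It measured 35.5, 27.2 and 78.1 CPM in WT HFD males and 8.74, 18.1 and 15.9 in WT ND males. Library 3 of the HFD group was more than 2 times as high as library 1, and the groups did not overlap. The fitted diet effect was 3.31-fold (log2 1.73 ± 0.39, 95% interval 0.87 to 2.58, unadjusted p = 0.000877), rank 40 among 14873 genes, with an adjusted p of 0.3161 from edgeR and 0.01082 from DESeq2. These tests do not pair libraries by replicate number, and with that number as a block edgeR's adjusted p was 0.4905. Libraries that did not overlap in this comparison, with HFD higher, were found for 12.9% of all genes tested. Without library 3 of WT HFD the difference was 1.13, with an adjusted p of 0.9998, and over all libraries left out in turn it ran from 1.13 to 2.0. Males labelled Cyp2b-null had 37.9, 45.3 and 31.7 CPM on HFD and 25.96, 25.4 and 17.6 on ND, again without overlap, and a diet effect of 0.74 ± 0.38 (adjusted p = 0.4809). In that comparison 6.37% of all genes tested were higher on HFD without overlap. The interaction was -0.99 ± 0.54 (adjusted p = 0.8912). The genotype effect was -0.30 ± 0.38 on HFD and 0.69 ± 0.39 on ND, and on HFD it became 0.27 when library 3 of WT HFD was left out. With the divergent library left out, the diet effect in males labelled Cyp2b-null was 0.83 (adjusted p = 0.8325, edgeR). The interaction was then -0.90 and the genotype effect on ND 0.60.

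The summed level of 5 adipocyte markers was 9.26 to 40.3 CPM in the labelled Cyp2b-null HFD males, 16.1 to 27.4 in WT HFD, 0.392 to 38.9 in the labelled Cyp2b-null ND and 0.866 to 1.82 in WT ND. The value of 38.9 CPM is that of the divergent library, and the other ND males had at most 4.78 CPM, below every HFD male. The sum was mostly Cfd, which encodes adipsin, at 20.9 ± 16.9 CPM in the labelled Cyp2b-null HFD males and 20.2 ± 5.4 in WT HFD, while the other 4 markers were at 0 in each labelled Cyp2b-null HFD library and none exceeded 0.681 CPM in WT HFD. In the divergent library Plin1 and Adipoq, which encode perilipin 1 and adiponectin, had 3.21 and 2.81 CPM. The part of this sum in the diet differences of Fmo1 and Fmo2 was not tested. In bulk liver, fewer cells of a type and less RNA per cell cannot be told apart. The summed level of 4 lung epithelium markers was at most 7.49 CPM in any male library and at most 1.93 CPM in any female one, with 2 or more of the 4 at 0 in each library.

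In females Fmo2 was lowest in WT ND livers. It measured 54.4, 68.9 and 66.7 CPM in Cyp2b-null HFD, 42.5, 52.9 and 64.3 in WT HFD, 53.4, 41.8 and 69.1 in Cyp2b-null ND and 25.5, 33.9 and 41.2 in WT ND. WT ND did not overlap any of the other 3 groups, although its highest library and the lowest of Cyp2b-null ND were close, and the other 3 groups overlapped one another. The genotype effect on ND was 1.63-fold (log2 0.71 ± 0.25, 95% interval 0.18 to 1.23, adjusted p = 0.5316) and the diet effect in WT females 1.58-fold (0.66 ± 0.25, adjusted p = 0.9999). These values share the WT ND libraries. Among all genes tested in females, 5.18% were higher in Cyp2b-null than in WT on ND without overlap, and 3.89% were higher on HFD than on ND in WT. Library 1 of WT ND, the lowest in Fmo2, had the highest mitochondrial share of the female libraries, 13.96% against at most 8.54% in the others, and without it the values were 0.54 and 0.50. All 9 Kupffer cell and macrophage markers were higher on HFD in WT females (median log2 difference 0.66) and in Cyp2b-null females (0.78), and none was called. Their summed level was 307 to 542 CPM in WT HFD and 178 to 362 in WT ND females, with overlap, and their part in the Fmo2 difference was not tested. On HFD the genotype effect was 0.25 ± 0.24, in Cyp2b-null females the diet effect was 0.21 ± 0.24, and the interaction was -0.46 ± 0.34. With a term for the side of the first principal component on which each library lay, the genotype effect on ND was 0.78 ± 0.23 (adjusted p = 0.1975).

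Fmo4, the least studied form, was higher in Cyp2b-null ND livers than in WT ND livers without overlap in both sexes, without passing the threshold in either. In females it measured 14.3, 22.5 and 21.8 CPM in Cyp2b-null ND livers, against 10.7, 9.48 and 10.1 in WT ND livers, from 33 to 54 and from 19 to 24 counts. The groups did not overlap, as in 5.18% of all genes tested with Cyp2b-null higher, and the log2 difference was 0.95 ± 0.42 (1.93-fold, adjusted p = 0.7439). On HFD it measured 19.2, 13.4 and 15.8 CPM in Cyp2b-null females, against 20.9, 12.5 and 3.71 in WT females. The value of 3.71 CPM comes from 9 counts, and leaving that library out turned the genotype effect on HFD from 0.38 to -0.04.

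In males Fmo4 measured 28.1, 17.5 and 20.4 CPM in the labelled Cyp2b-null ND livers, against 11.7, 11.04 and 10.5 in WT ND livers. On HFD it measured 14.4, 8.996 and 12.1 CPM in males labelled Cyp2b-null, against 8.06, 17.02 and 16.3 in WT males. The labelled Cyp2b-null ND libraries overlapped neither those of WT ND nor those of labelled Cyp2b-null HFD males. Summed hepatocyte markers were 43194 to 85777 CPM in the labelled Cyp2b-null ND males and 114282 to 145461 in WT ND males, without overlap; 7 of the 8 were lower and 1 higher in the labelled Cyp2b-null ND males (median log2 difference -0.62, against 0.06 over all genes; -0.55 without the divergent library), and none was called. Their part in the Fmo4 difference was not tested. The genotype effect on ND was 1.98-fold (log2 0.99 ± 0.30, 95% interval 0.32 to 1.65, adjusted p = 0.2128), and 10.3% of all genes tested were higher without overlap there. Without the divergent library, which has the highest Fmo4 value, it was 0.77 (adjusted p = 0.1959). The diet effect was -0.89 ± 0.30 in males labelled Cyp2b-null (adjusted p = 0.4341), with HFD lower without overlap, as in 5.72% of all genes tested, and 0.31 ± 0.30 in WT males. The interaction was -1.20 ± 0.43, with an unadjusted p of 0.0154 and an adjusted p of 0.8912. Without the divergent library the interaction was -0.99 and the diet effect in males labelled Cyp2b-null was -0.67 (adjusted p = 0.6942, edgeR).

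Fmo5, the form that favours Baeyer-Villiger oxidation, followed a crossed pattern in females. It measured 328, 339 and 338 CPM in Cyp2b-null HFD livers, 256, 210.3 and 305 in WT HFD, 317, 211 and 222 in Cyp2b-null ND and 345, 385 and 320.4 in WT ND. Cyp2b-null livers were thus higher than WT without overlap on HFD and lower than WT without overlap on ND. The genotype effect was 0.38 ± 0.20 on HFD (95% interval -0.05 to 0.81) and -0.49 ± 0.20 on ND (-0.92 to -0.05). The diet effect was 0.42 ± 0.20 in Cyp2b-null and -0.45 ± 0.20 in WT females. The HFD libraries were higher without overlap in Cyp2b-null females, as in 6.18% of all genes tested, and lower without overlap in WT females, as in 3.97%. The interaction was 0.87 ± 0.29, 1.83-fold (95% interval 0.26 to 1.48, unadjusted p = 0.00852), rank 55 among 11830 genes, with an adjusted p of 0.9995. It ran from 0.74 to 1.07 over the libraries left out in turn and, once the side of each library was a term, was 0.83 ± 0.24 (adjusted p = 0.9346). Libraries without overlap were found for 3.38% of all genes with Cyp2b-null higher on HFD and for 6.10% with Cyp2b-null lower on ND.

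Immediate early genes, which respond to handling, differed between some of the female groups. The summed level of 15 of them was 352 to 2758 CPM in Cyp2b-null HFD, 226 to 2543 in WT HFD, 2414 to 3304 in Cyp2b-null ND and 479 to 1321 in WT ND females. On ND 13 of the 14 tested were higher and 1 lower in Cyp2b-null than in WT females, with a median log2 difference of 1.70 against -0.02 over all genes, and none was called. Their part in the female differences of Fmo2, Fmo4 and Fmo5 was not tested.

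In males Fmo5 was highest in the livers labelled Cyp2b-null on HFD. It measured 979, 1315 and 1437 CPM there, 679, 912 and 796 in WT HFD, 416, 761 and 836 in the labelled Cyp2b-null ND and 862, 651 and 720.0 in WT ND. The labelled Cyp2b-null HFD libraries overlapped neither those of WT HFD nor those of labelled Cyp2b-null ND, and the remaining 3 groups overlapped. Of all genes tested, 4.67% were higher without overlap in the labelled Cyp2b-null HFD males than in WT HFD. The share was 6.37% for labelled Cyp2b-null HFD above labelled Cyp2b-null ND. The genotype effect on HFD was 1.56-fold (log2 0.64 ± 0.30, adjusted p = 0.9998), the diet effect in males labelled Cyp2b-null 1.85-fold (0.89 ± 0.30, adjusted p = 0.4341) and the interaction 0.79 ± 0.42 (adjusted p = 0.8912). The low value of 416 CPM belongs to the divergent library. Without it the diet effect was 0.64, the interaction 0.54 and the genotype effect on ND 0.10, the last against -0.15 with it. In WT males the diet effect was 0.10 ± 0.30. Summed pericentral hepatocyte markers, 10 genes, were 11746 to 13517 CPM in the labelled Cyp2b-null HFD males and 2285 to 14195 in the labelled Cyp2b-null ND males, where the lowest value is that of the divergent library. All 10 were higher on HFD in the labelled Cyp2b-null males (median log2 difference 0.52), and 9 of 10 without that library (0.19). Their part in the Fmo5 difference was not tested.

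**Figure D4:**
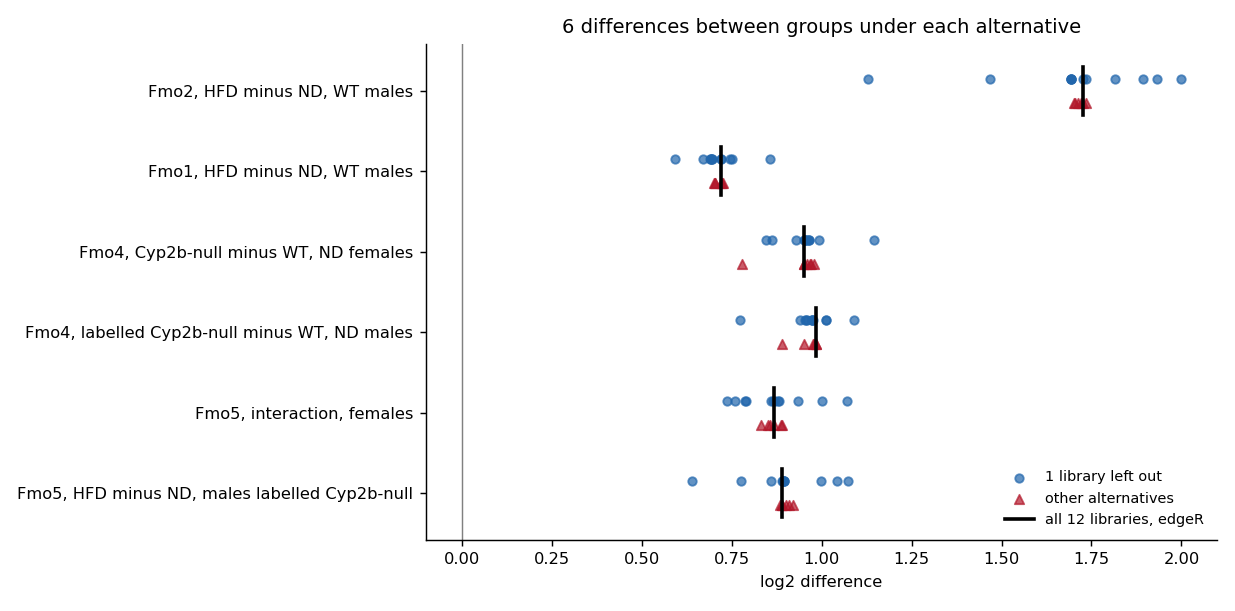
Log2 difference of 6 of the comparisons (rows) with all libraries in edgeR (black line), with each library of the sex left out in turn (circles) and under the other alternatives (triangles). Every point lies above 0, and Fmo2 for diet in WT males is at 1.13 without library 3 of WT HFD.

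No member differed between the sexes beyond the threshold in its genotype or diet effect. In a joint fit of the 24 libraries, the female minus the male diet effect in WT mice was -1.05 ± 0.47 for Fmo2 and -0.63 ± 0.28 for Fmo1, each with an adjusted p of 0.9998. For Fmo5 it was -0.53 ± 0.36 and for Fmo4 0.00 ± 0.52. The female minus male genotype effect of Fmo4 on ND was -0.03 ± 0.55. Calls were made for 0.00665% of genes in the sex difference of the diet effect in WT mice, 0.0332% in that of the genotype effect on ND, 0.0133% in that of the genotype effect on HFD and 0% in that of the diet effect in Cyp2b-null mice. In that last comparison the lowest adjusted p of any member was 0.9649, 4.65% of all genes had an unadjusted p under 0.05 and DESeq2 called no gene.

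Fmo1 and Fmo2 varied together across the male libraries. Over the 12 male libraries their log2 CPM had a Pearson r of 0.89 (permutation p = 7e-05, 0.00084 after Benjamini-Hochberg adjustment over 12 pairs) and a Spearman rho of 0.97 (permutation p = 1e-05, the smallest that 100000 resamples can give). Without the 2 libraries furthest from the Fmo1 median r was 0.86. The diet groups do not overlap in either gene, so part of this r is the difference between them: for deviations from the group means r was 0.64. The permutations shuffled libraries across all groups, so their p-values cannot separate that difference from variation within groups. No p was computed for the r of 0.64. In the 12 female libraries r was 0.32 and rho 0.38, with permutation p of 0.31 and 0.22, and r was 0.02 without the 2 furthest libraries. None of the other 5 pairs of members in either sex had an adjusted p under 0.51. Fmo2 and Fmo4, at the ends of the cluster on chromosome 1, had r of 0.00 in males and 0.06 in females.

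**Figure D5:**
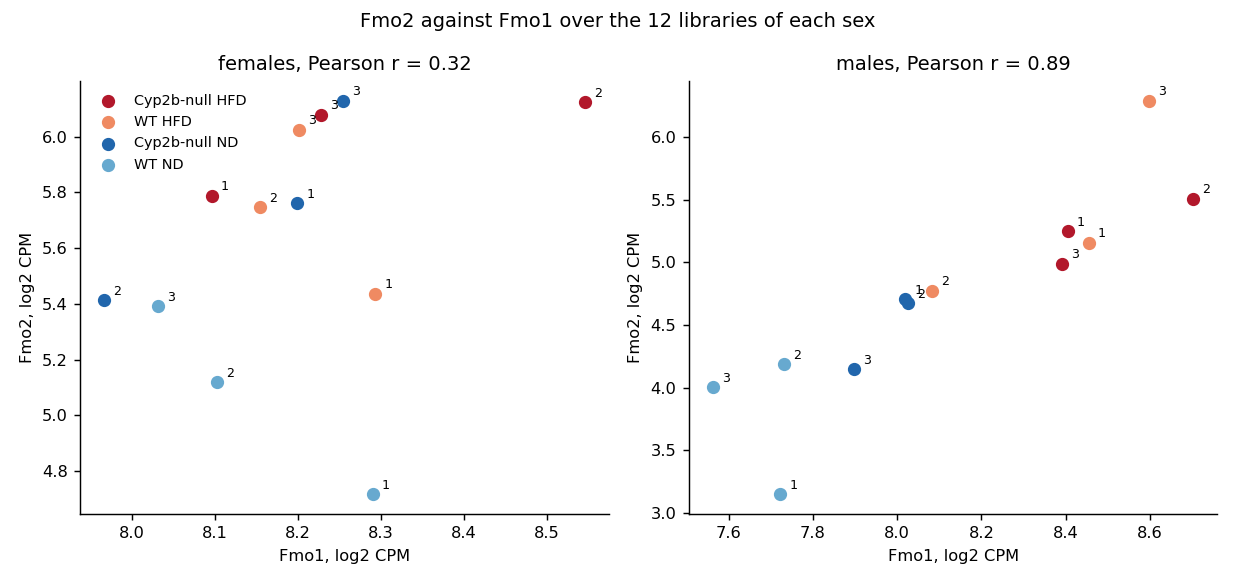
Log2 CPM of Fmo2 against that of Fmo1 in the 12 female (left) and 12 male (right) libraries, coloured by group and numbered by replicate. The male libraries lie along a rising line, with ND at the lower left, HFD at the upper right and r = 0.89, and the female libraries do not, with r = 0.32.

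Among 8390 male genes whose log2 CPM averaged 3 or more, the genes most like Fmo1 by Pearson r over the 12 libraries were Acss3 (0.90), Acad10 (0.89) and Fgf1 (0.89), and those most like Fmo2 were Chd9 (0.89), Fmo1 (0.89) and Acad10 (0.87). For Fmo4 they were Tsc1, Smurf1 and Eepd1 (each 0.88), and for Fmo5 Trp53inp2 (0.96) and Osbpl8 (0.92). Among 8471 female genes Cyb5a (0.89), Fam195a (0.88) and Apof (0.84) were most like Fmo1 and Uck2 (0.92), Rmdn3 (0.90) and Tgm1 (0.90) most like Fmo2. Dclre1c (0.90), Insr (0.88) and Zfp386 (0.88) were most like Fmo4 in females, and Slc36a1 (0.90), Dnaja2 (0.86) and Mmp19 (0.86) most like Fmo5. No gene was among the 3 most like the same member in both sexes. These are the highest of 8390 or 8471 values each, over 12 libraries that share groups and depth.

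Lists of genes that work beside the family held no call with all libraries in edgeR. The 24 other phase I oxidoreductases in the tables, of which 23 were tested in each sex, had no call in any of the 8 comparisons between groups, and neither had the 18 genes of electron donation and NADPH supply, the 16 genes of the taurine, cysteamine and methylamine routes that FMO enzymes act on, or 19 transcription factors and receptors of liver drug metabolism. The phase I oxidoreductases had 6 higher and 17 lower in the labelled Cyp2b-null ND males than in WT (median log2 difference -0.43, against 0.06 over all genes). The divergent library had a summed level of 5262 CPM, against 11496 and 10426 in the other libraries of its group, and without it the median was -0.08, with 7 higher and 17 lower of the 24 then tested. In females 14 were higher and 9 lower in the same comparison (0.06, against -0.02). Por, the reductase that serves P450 enzymes, averaged 555 ± 54 CPM in Cyp2b-null ND females and 248 ± 56 in WT ND females (log2 difference 1.16 ± 0.24, adjusted p = 0.08159). Csad, which makes hypotaurine in the liver, averaged 58.8 ± 9.7 CPM in the labelled Cyp2b-null males on HFD and 368 ± 168 on ND (-2.65 ± 0.36, adjusted p = 0.05634). In WT males Csad averaged 111 ± 4 CPM on HFD and 589 ± 125 on ND (-2.41 ± 0.35, adjusted p = 0.08756). Ppara, the receptor that governs fatty acid oxidation genes, averaged 523 ± 63 CPM in WT HFD males and 235 ± 12 in WT ND males (1.15 ± 0.24, adjusted p = 0.2553). Males labelled Cyp2b-null had 540 ± 62 CPM of Ppara on HFD and 533 ± 106 on ND (0.02 ± 0.23). The genotype effect on ND was 1.18 ± 0.24 (adjusted p = 0.1647) and the interaction -1.14 ± 0.33 (unadjusted p = 0.00491, adjusted p = 0.8912). Without the divergent library edgeR called 4 of these list genes for diet in WT males, where it called 0.72% of all genes: Csad (log2 difference -2.405, adjusted p = 0.0001518) fell on HFD, and Vnn1 (1.84, 0.006058), which makes cysteamine, Ppara (1.15, 0.015) and Aldh3a2 (1.06, 0.02882), an oxidising enzyme of fatty aldehydes, rose. Csad also fell on HFD in the males labelled Cyp2b-null (-2.97, adjusted p = 2.768e-05), where 0.0859% of all genes were called. Vnn1 and Aldh3a2 were named after their values had been seen.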

How the data were processed

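The authors deposited a table of raw read counts for each sex, with gene symbols as rows. The submitters' processing notes name GRCm38.p5 as the build, and Subread, GSNAP, Trimmomatic, FastQC and edgeR as tools; no source used here gives their settings or the use of strand. Per the labels' protocols, male RNA came from the RNeasy Plus Universal kit and TruSeq Total RNA libraries, and female RNA from Trizol and NEB Next Ultra RNA libraries. Groups were taken from the titles. Counts of the 1806 symbols repeated in the male table and the 2 repeated in the female one were summed, and 25 symbols turned into dates (at most 0.160% of a library) were not tested. Replicate libraries all differed by more than counting noise (chi-square per degree of freedom at least 5.56).

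Each sex was fitted with edgeR 4.0.16 (R 4.3.3): 1 term per group over 12 libraries, TMM, a filter on low counts by group (11830 genes left in females, 14873 in males), robust quasi-likelihood tests, Benjamini-Hochberg adjustment over all genes and a call at 0.05. Steps were tested on simulated counts that held no divergent library, paired libraries or library sides, and the outcome is not reported here. CPM use TMM factors, log2 CPM a prior count of 2, and per-length values the GENCODE M21 exons. P-values measure the spread between libraries, which may be technical. A joint fit (15043 genes) tested sex differences. Same-numbered libraries deviated together in every pair only between WT HFD and WT ND (r 0.139 to 0.564 in females, 0.11 to 0.127 in males). These libraries may thus be paired, but nothing in the labels says what a number marks. The main tests therefore held no replicate term, and the replicate block was run as an alternative. The members, the gene lists and the naming rule (members, the 3 genes most like each, and the list member with the smallest p per comparison) were chosen with earlier results of these data known; some items that the rule names are not reported here. The alternatives tried were the first of repeated symbols, each library left out, the replicate block, DESeq2 1.42.0, RLE scaling, fits of the compared groups alone and no filter. The averaged effects and the term for library sides were added after the data were seen.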

Additional observations from a re-analysis of the deposited data

How the results depend on the processing

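With counts of 9 to 54 per library Fmo4 in females was measured least precisely. The number of members called was 0 in each of the 14 comparisons under each alternative run, except that DESeq2 called 2 for diet in WT males. Of 1164 member values under alternatives, 1103 kept their direction and side of the threshold. The replicate block changed no member call and took the genes called for genotype on ND from 15 to 8 in females; for diet in WT it gave Fmo2 1.72 and Fmo1 0.72 in males and Fmo2 0.67 and Fmo5 -0.45 in females. Signs turned only for values near 0 or resting on 1 library, and the cause was not tested. For genotype on ND in females Fmo1 was -0.00122 without a filter, -0.000128 with the first of repeated symbols and -0.0459 with the library sides. For the female minus male genotype effect on ND Fmo2 was -0.00697 under RLE and -0.00637 under DESeq2, and Fmo4 was 0.0953 without a filter. Without a filter Fmo1 was 0.0167 for that on HFD and Fmo4 -0.0170 for diet in WT. With 1 library left out, Fmo1 ranged from -0.0578 to 0.0833 (genotype on ND), -0.0541 to 0.18 (on HFD) and -0.0538 to 0.18 (interaction) in females and from -0.0224 to 0.21 (on HFD) in males. Fmo4 in females ranged from -0.0436 to 1.01 (genotype on HFD), -0.32 to 0.73 (diet in WT) and -1.01 to 0.0498 (interaction). In males Fmo2 ranged from -0.57 to 0.27 (genotype on HFD), and Fmo5 from -0.36 to 0.10 (genotype on ND) and -0.0129 to 0.21 (diet in WT). The female minus male values ranged, on ND by genotype, from -0.27 to 0.25 for Fmo2 and -0.32 to 0.21 for Fmo4, on HFD from -0.18 to 0.0950 for Fmo1 and -0.0424 to 0.81 for Fmo2, and for diet in WT from -0.62 to 0.43 for Fmo4. Genes called over all genes moved more: for genotype on ND from 15 to 121 in females without a filter and 70 with DESeq2, and from 2 to 369 in males with DESeq2 and 724 without library 2 of the labelled Cyp2b-null ND group.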

Other observations

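Averaging over the other factor, which was done after the data were seen, sets 6 libraries against 6 in the same fit. Averaged over genotypes, the male diet effect (HFD minus ND) was 1.23 ± 0.27 on the log2 scale for Fmo2 (2.35-fold, adjusted p = 0.1395, edgeR). For Fmo1 it was 0.62 ± 0.16 (1.54-fold, adjusted p = 0.2019), and edgeR called 0.0874% of genes there. Both genes were higher in each of the 6 HFD libraries than in any ND library, as were 0.699% of the 14873 genes tested. Without the divergent male library, Fmo1 was 0.63 ± 0.13 with an adjusted p of 0.03301 and Fmo2 1.28 ± 0.29 with 0.07055, and 1.01% of genes were called. The 153 genes called without it compare with 13 with it. The male value was 0.49 ± 0.21 for Fmo5 and -0.29 ± 0.21 for Fmo4 with all libraries, and 0.37 ± 0.15 and -0.18 ± 0.19 without the divergent one.

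In females the diet effect averaged over genotypes was 0.44 ± 0.17 for Fmo2 (adjusted p = 0.7953), 0.11 ± 0.13 for Fmo1, 0.01 ± 0.29 for Fmo4 and -0.01 ± 0.14 for Fmo5, where no gene was called by edgeR and 5.57% had an unadjusted p under 0.05. The female genotype effect (Cyp2b-null minus WT) averaged over diets was 0.67 ± 0.30 for Fmo4 (adjusted p = 0.7767), 0.48 ± 0.17 for Fmo2 (adjusted p = 0.5851), 0.04 ± 0.13 for Fmo1 and -0.05 ± 0.14 for Fmo5, with 0.093% of genes called. In males the genotype effect averaged over diets was 0.38 ± 0.21 for Fmo4, 0.25 ± 0.21 for Fmo5, 0.21 ± 0.16 for Fmo1 and 0.20 ± 0.27 for Fmo2, with 0.0202% of genes called. Without the divergent library Fmo5 was 0.37 ± 0.14 (unadjusted p = 0.02206, adjusted p = 0.24, edgeR). Fmo4 was then 0.28 ± 0.19, Fmo1 0.20 ± 0.13 and Fmo2 0.15 ± 0.28. With a single WT HFD library left out instead, and the divergent library kept, Fmo2 ran from 0.0540 to 0.47.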
